A study of Mus musculus with 16 samples.

Results

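Profilins and the proteins that assemble actin filaments form a set of 46 genes here. They were chosen by name for what their proteins do, with earlier results of these data known. All 46 were found among the 18167 genes of the deposited table, 3 of them, *Diaph1*, *Diaph2* and *Diaph3*, under older symbols. The set contrasts the neuronal members *Pfn2*, *Wasf1* and *Fmn2* with *Coro1a*, *Arpc1b*, *Lcp1*, *Was* and *Capg*, which are enriched in leukocytes.

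The study sequenced mRNA of whole spinal cord from 16 male mice, 1 library a mouse, to follow a profilin 1 mutation that causes motor neuron disease. MO (5 mice, 175 to 245 days old) and MY (3 mice, 50 days old) were C57BL/6N mice with the transgene Tg(Prnp-PFN1*G118V)838Kiaei, which encodes mutant human profilin 1. The MO mice were at end stage, when they could no longer right themselves, and the MY mice had no symptoms. WO (5 mice, 190 to 294 days old) and WY (3 mice, 50 days old) were C57BL/6N mice with Tg(Prnp-PFN1)850Kiaei, which encodes the wild-type human protein. In both strains the transgene is a human cDNA behind the mouse Prnp promoter, which drives expression in neurons and in many other cells. Each strain is 1 transgenic line, and no group lacks the human protein. Batch 1 of the labels holds all young mice, WO1 to WO3 and MO1 to MO3, and batch 2 holds WO4, WO5, MO4 and MO5. Since WO4 and WO5 were 294 days old and WO1 to WO3 190 days, age and batch cannot be told apart within WO. MO4 was 224 and MO5 175 days old, both younger than WO4 and WO5. In the batch 2 differences of WO vs. MO, genotype and age therefore cannot be told apart.

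MO5 goes against the male label. Its *Xist* level was 3.21 on the log2 scale, while no other mouse exceeded 0.37, and its level of the Y-linked gene *Ddx3y* was 1.95, against at least 4.06 in the others. *Uty*, *Kdm5d* and *Eif2s3y*, also on the Y chromosome, were lower in MO5 than in all other mice as well. The main counts and the members described one by one are therefore also given without MO5. In the deposited values *Prnp*, whose promoter drives both transgenes, was higher in the mutant strain at both ages. The log2 difference was 1.94 in WY vs. MY (limma FDR 7.27e-05) and 2.10 in WO vs. MO (FDR 1.46e-05). By qRT-PCR the authors found no significant change of *Prnp* in either comparison. How many reads of the human transgene were assigned to mouse *Pfn1* or *Prnp* is not known from the values. The values are log2(1 + FPKM), FPKM being fragments scaled by transcript length and library size, adjusted for batch by the authors. They give no read counts per gene.

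Profilin binds actin monomers and hands them to formins and to proteins of the Ena/VASP family, which lengthen unbranched filaments. The Arp2/3 complex, switched on by proteins of the WASP and WAVE families, starts branches on existing filaments, while cofilin, gelsolin and capping proteins cut filaments or close their ends. In the nervous system this machinery shapes growth cones, axons and synapses, and in microglia and other leukocytes it drives migration and phagocytosis.

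All members were measurable, with mean log2 levels over the 16 mice from 0.34 for the formin *Diaph3* to 10.74 for *Tmsb4x*. Their median of 5.21 lay above the 2.83 of all genes. *Tmsb4x* was the gene with rank 7 among the 18167, followed within the set by *Cfl1*, *Actg1*, *Actb* and *Pfn2*. *Was* and *Diaph3* were the only members with a mean under 1.

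A member is called here when its limma FDR over all 18167 genes was at most 0.05 and it differed at least 1.5-fold. Changes are log2 differences, second group minus first, so WO vs. MO is positive where the end-stage mutants were higher. In WO vs. MO, the comparison of genotypes in old mice, 4 of 46 members were called higher, against 4.08% of all genes: *Tmsb4x*, *Arpc1b*, *Was* and *Capg*. None was called lower (all genes 0.517%), while 31 members had an unadjusted limma p under 0.05 (all genes 38.5%), 25 of them higher, and the other fits called 3 to 6 members in all. By the FDR alone 25 members were higher, against 15.0% of all genes, and 4 were lower, against 12.9%. The median change of the members was 0.20, that of all genes 0.00. Without MO5 the same counts were 4 called higher (all genes 4.08%), 24 higher by the FDR (13.8%) and 4 lower (12.1%). Among the mice of batch 1 alone, 3 a group, 10 members were higher by the FDR (all genes 8.52%) and 2 lower (all genes 5.86%).

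In MY vs. MO, the comparison of ages in the mutant strain, 6 members were called higher (all genes 4.11%), *Fmnl3* and *Coro1a* beside the 4 genes above. None was called lower (all genes 0.787%), with 28 members at an unadjusted limma p under 0.05 (all genes 36.7%), 20 of them higher, and 4 to 6 called members over the other fits. By the FDR alone 15 members were higher, against 13.1% of all genes, and 5 were lower, against 12.5%. Leaving out MY1, MY2 or MY3 gave 9 higher and 3 lower in each case (all genes at most 9.14% and 7.72%), leaving out MO3 gave 3 lower (9.56%), and without MO5 there were 13 higher (12.0%) and 4 lower (11.7%). Without MO5 4 members were called higher (all genes 4.11%) and 1 lower, *Gsn* (0.925%). MY vs. MO and WO vs. MO share the MO mice, and the values of both are given side by side for each member.

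The remaining comparisons leave out MO, and their counts were not tested against those above. In WY vs. WO, the comparison of ages in wild-type mice, 1 member was called lower, *Gsn* (all genes 0.204%), and 2 were lower by the FDR alone, *Gsn* and *Arpc1b* (all genes 0.892%). None was higher by either rule (all genes 0.0495% and 0.231%), with 12 members at an unadjusted limma p under 0.05 (all genes 13.5%), 2 of them higher. Without WY3 no member was called in that comparison by limma and without WO1 2 were, while the other fits gave 0 to 2. In WY vs. MY, genotypes before symptoms, 0 of 46 members passed in limma (all genes 0.00550%), in the deposited values and in each alternative fit, and 7 had an unadjusted p under 0.05 (all genes 7.16%), 6 of them higher.

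**Figure D1:**
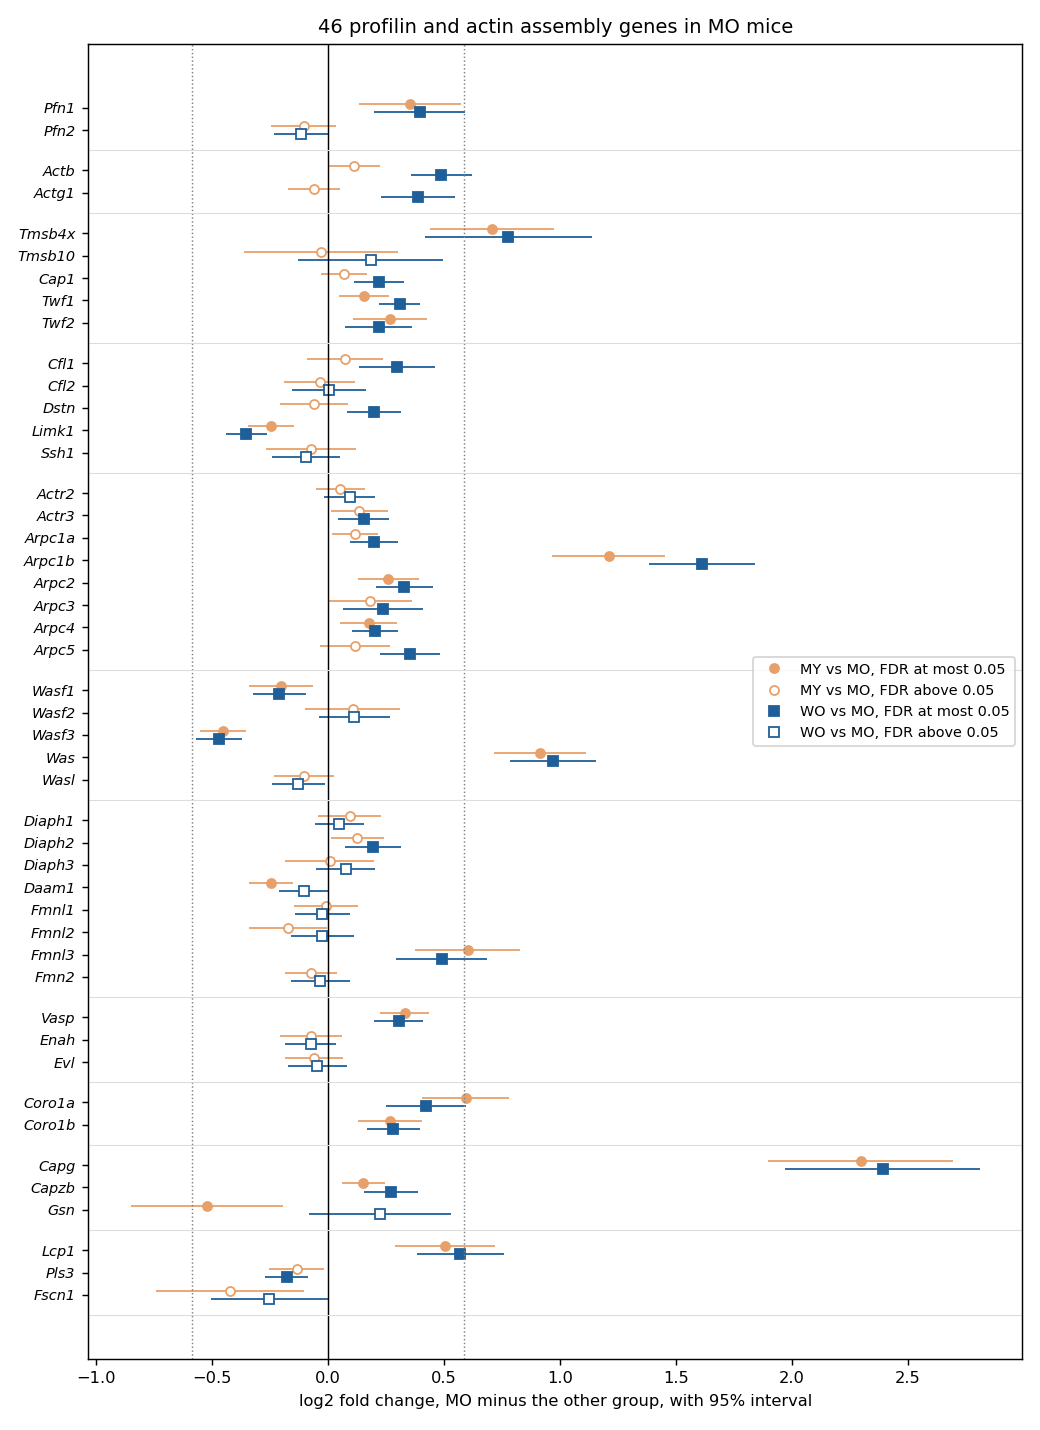
Log2 changes with 95% intervals of the 46 members, ordered by role, in MY vs. MO and WO vs. MO, filled where the FDR was at most 0.05, with dotted lines at 1.5-fold. *Capg*, at 2.30 and 2.39, and *Arpc1b*, at 1.21 and 1.61, lie farthest to the right.

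*Pfn1*, the profilin of most tissues, had the lower FPKM of the 2 profilins in spinal cord. *Pfn1* had log2 levels of 6.96, 6.58 and 6.76 in WY1 to WY3 and of 6.63, 6.67 and 6.69 in MY1 to MY3. *Pfn1* in the old mice had log2 levels of 6.82, 6.62, 6.50, 6.57 and 6.60 in WO1 to WO5 and of 6.74, 6.95, 7.14, 7.18 and 7.07 in MO1 to MO5. All MO mice except MO1 lay above all WO mice, MO1 lay below WO1, and the young groups overlapped. The mean FPKM was 97.7 ± 8.38 (SD, n = 5) in WO and 129 ± 15.5 (SD, n = 5) in MO. *Pfn1* rose in WO vs. MO by 0.40 (SE 0.09, FDR 0.00708), with 0.30 in batch 1 and 0.54 in batch 2, and by 0.38 without MO5 (FDR 0.0182). With batch 1 alone the FDR was 0.172. The change in MY vs. MO was 0.35 (FDR 0.0278), but 0.34 without MO5 (FDR 0.055), and the FDR was also above 0.05 without MY1 (0.1), MY2 (0.0815), MY3 (0.078) or MO3 (0.0589), with batch 1 alone (0.28, FDR 0.0908) and with batch as a term (0.0729). Its change with age differed between the strains by 0.50 (interaction FDR 0.0253), a difference whose FDR exceeded 0.05 without WY1 (0.0786), MY1 (0.0631) or MY2 (0.051) and with batch 1 alone (0.151).

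*Pfn2*, the profilin of neurons, was higher than *Pfn1* in each of the 16 mice. *Pfn2* had log2 levels of 8.33, 8.37 and 8.32 in WY1 to WY3 and of 8.31, 8.31 and 8.29 in MY1 to MY3. *Pfn2* in the old mice had log2 levels of 8.39, 8.34, 8.32, 8.24 and 8.28 in WO1 to WO5 and of 8.14, 8.32, 8.10, 8.30 and 8.13 in MO1 to MO5. MO1, MO3 and MO5 were the lowest of all mice, while MO2 and MO4 lay within the range of WO. The change was −0.12 in WO vs. MO (95% interval −0.23 to 0.00, FDR 0.136) with −0.17 in batch 1 and −0.04 in batch 2, and −0.10 in MY vs. MO (−0.24 to 0.04, FDR 0.262). After quantile normalization across the mice both passed the test, at −0.19 (FDR 0.00292) and −0.21 (FDR 0.00784). The *Pfn2* interaction, which did not pass as deposited, passed after that scaling as well (−0.225, FDR 0.0272). Without MO5 the WO vs. MO value was −0.10 (FDR 0.246).

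**Figure D2:**
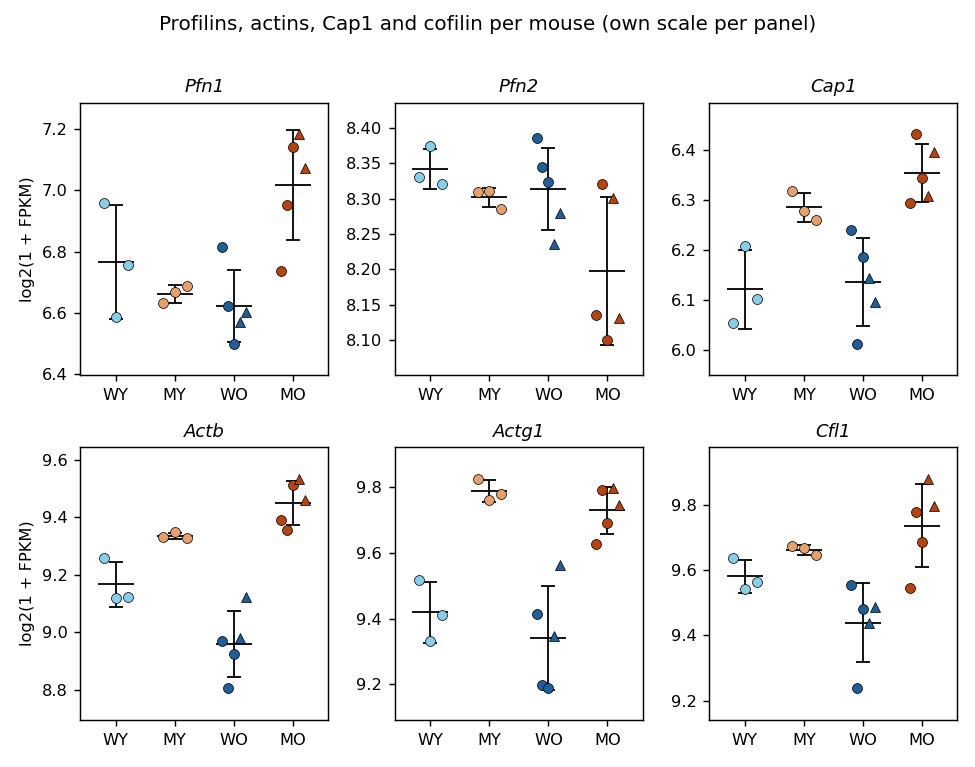
Log2(1 + FPKM) of *Pfn1*, *Pfn2*, *Cap1*, *Actb*, *Actg1* and *Cfl1* in each mouse, circles for batch 1 and triangles for batch 2, with the mean and SD of each group. For *Actb*, *Actg1* and *Cap1* the MY and MO mice lie above all WY and WO mice as deposited, but after quantile normalization only for *Cap1*.

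The cytoplasmic actins are the monomers from which the filaments are built. *Actb*, *Cap1*, *Limk1* and *Wasf3* fall outside the rule that chose the genes described one by one and were added after their values were seen. *Actb* had log2 levels of 9.26, 9.12 and 9.12 in WY1 to WY3 and of 9.33, 9.35 and 9.33 in MY1 to MY3. *Actb* in the old mice had log2 levels of 8.97, 8.81, 8.93, 8.98 and 9.12 in WO1 to WO5 and of 9.39, 9.36, 9.51, 9.53 and 9.46 in MO1 to MO5. Each of the 8 mutant mice was above each of the 8 wild-type mice, young and old, with a gap of 0.07 between MY3 and WY1. *Actb* was higher in WO vs. MO by 0.49 (SE 0.06, FDR 0.000191), with 0.52 in batch 1 and 0.45 in batch 2, and by 0.49 without MO5. The difference in MY vs. MO was 0.11 (FDR 0.132), which turned to −0.03 after quantile normalization.

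*Actg1*, the other cytoplasmic actin, showed the same order of the strains. *Actg1* had log2 levels of 9.52, 9.33 and 9.41 in WY1 to WY3 and of 9.83, 9.76 and 9.78 in MY1 to MY3. *Actg1* in the old mice had log2 levels of 9.41, 9.20, 9.19, 9.35 and 9.56 in WO1 to WO5 and of 9.63, 9.79, 9.69, 9.80 and 9.75 in MO1 to MO5. The lowest mutant was MO1 and the highest wild-type mouse WO5, and the gap between them was 0.06. Here the young mutants were as high as the old ones. Its difference was 0.39 in WO vs. MO (FDR 0.00259; 0.44 in batch 1, 0.32 in batch 2; 0.39 without MO5, FDR 0.00705), −0.06 in MY vs. MO (FDR 0.441) and 0.37 in WY vs. MY (FDR 0.398). After quantile normalization WO vs. MO gave 0.22 (FDR 0.17) and MY vs. MO −0.37 (FDR 0.00175). The interaction was 0.02 (FDR 0.933) as deposited and −0.31 (FDR 0.193) after that scaling.

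The strains were then compared over both ages in 1 fit of the 16 mice, a comparison added after the actin values were seen. By the FDR 14 members were higher in the mutant strain (all genes 6.88%) and 1, *Limk1*, was lower (all genes 2.66%), and without MO5 11 were higher (6.63%) and 1 lower (2.68%). In batch 1 alone 9 passed in all (all genes 6.20% higher and 2.75% lower), *Limk1* not among them. *Cfl1*, at 0.19, lost the FDR in 11 of 23 alternatives, and *Arpc5*, at 0.16, in 14. The 14 include *Actb*, *Actg1* and *Cap1*, and the actins prompted the comparison, so nothing is read from this count. Those 3 and *Limk1* are given as differences with no test: 0.38 for *Actg1*, 0.33 for *Actb*, 0.19 for *Cap1* and −0.15 for *Limk1*, the same to 2 decimals without MO5, and 0.37, 0.27, 0.19 and −0.15 with quantile normalization. The value of *Limk1* comes from the old mice, since its mean in young mice was 6.19 in WY and 6.25 in MY. Counting mice instead, 3 of 46 members, *Actb*, *Actg1* and *Cap1*, had all 8 mutant mice above all 8 wild-type mice (all genes 0.182%), and 0 had them all below (all genes 0.132%). This count was also added after the actin values were seen, so nothing is read from it either. After quantile normalization 1 member, *Cap1*, kept that order, and 7 of 8 mutant mice for *Actb* and 3 of 8 for *Actg1* lay above all wild-type mice.

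Among the proteins that bind monomers, thymosin β4, encoded by *Tmsb4x*, holds them in reserve. *Tmsb4x* had log2 levels of 10.82, 10.45 and 10.77 in WY1 to WY3 and of 10.45, 10.60 and 10.47 in MY1 to MY3. *Tmsb4x* in the old mice had log2 levels of 10.27, 10.89, 10.73, 10.16 and 10.13 in WO1 to WO5 and of 10.94, 11.47, 11.07, 11.37 and 11.21 in MO1 to MO5. All 5 MO mice stood above the other 11, with the smallest margin between MO1 and WO2. Mean FPKM was 1420 ± 352 (SD, n = 5) in WO and 2390 ± 359 (SD, n = 5) in MO. *Tmsb4x* rose by 0.78 in WO vs. MO (FDR 0.00493; 0.78 without MO5) and by 0.71 in MY vs. MO (FDR 0.00351; 0.71 without MO5). The WO vs. MO difference was 0.53 in batch 1, where it missed the FDR at 0.127, and 1.15 in batch 2. Quantile normalization, which pulls the most abundant genes of each mouse to common values, left 0.28 and 0.26, past the FDR but under 1.5-fold. A test against 1.2-fold (treat) also ended both calls, with FDRs of 0.0889 and 0.056. The same scaling moved the median of all genes by far less, to −0.03 in both comparisons.

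*Cap1*, which recharges actin monomers with nucleotide together with cofilin, differed little but evenly. *Cap1* had log2 levels of 6.05, 6.21 and 6.10 in WY1 to WY3 and of 6.32, 6.28 and 6.26 in MY1 to MY3. *Cap1* in the old mice had log2 levels of 6.24, 6.01, 6.19, 6.14 and 6.10 in WO1 to WO5 and of 6.29, 6.43, 6.34, 6.31 and 6.40 in MO1 to MO5. The lowest mutant, MY3, was 0.02 above the highest wild-type mouse, WO1. In WO vs. MO *Cap1* was higher by 0.22 (FDR 0.00681; 0.21 in batch 1, where the FDR was 0.128, and 0.23 in batch 2; 0.21 without MO5, FDR 0.0179), and in MY vs. MO by 0.07 (FDR 0.297). *Twf1* (0.31, FDR 0.000284; 0.32 without MO5) and *Twf2* (0.22, FDR 0.0283), the twinfilins, also passed in WO vs. MO. *Tmsb10*, a second thymosin, did not (0.18, FDR 0.382), and its difference turned to −0.03 in batch 1 alone. *Twf2* lost the test in batch 1 alone (0.13, FDR 0.395) and when any of 7 single mice was left out, MO5 (FDR 0.0644) among them.

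*Cfl1* encodes the main cofilin, which severs and disassembles old filaments. *Cfl1* had log2 levels of 9.64, 9.54 and 9.56 in WY1 to WY3 and of 9.67, 9.67 and 9.65 in MY1 to MY3. *Cfl1* in the old mice had log2 levels of 9.55, 9.24, 9.48, 9.44 and 9.49 in WO1 to WO5 and of 9.54, 9.78, 9.69, 9.88 and 9.80 in MO1 to MO5. MO1 lay within the range of WO and the other MO mice above it, and all MY mice were above all WY mice. In WO vs. MO *Cfl1* was higher by 0.30 (FDR 0.0119; 0.28 without MO5, FDR 0.0292), with 0.25 in batch 1 (FDR 0.17) and 0.38 in batch 2, but by 0.10 after quantile normalization (FDR 0.405). MY vs. MO gave 0.07 (FDR 0.51) as deposited and −0.15 (FDR 0.0666) after that scaling. Its relative *Dstn* passed in WO vs. MO at 0.20 (FDR 0.0156, but 0.194 in batch 1 alone; 0.22 without MO5). *Cfl2*, the cofilin of muscle, was at 0.01 (FDR 0.969), and at −0.08 in batch 1 alone. *Ssh1*, a phosphatase that reactivates cofilin, had −0.09 (FDR 0.344).

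*Limk1*, the kinase that switches cofilin off, moved the other way. *Limk1* had log2 levels of 6.06, 6.27 and 6.23 in WY1 to WY3 and of 6.27, 6.22 and 6.25 in MY1 to MY3. *Limk1* in the old mice had log2 levels of 6.43, 6.31, 6.33, 6.32 and 6.38 in WO1 to WO5 and of 6.04, 6.01, 6.03, 5.90 and 6.03 in MO1 to MO5. All MO mice were below the 11 others, with MO1 and WY1 the closest. *Limk1* fell in WO vs. MO, at −0.35 (FDR 0.000122; −0.33 in batch 1, −0.39 in batch 2; −0.36 without MO5), and in MY vs. MO, at −0.24 (FDR 0.00474; −0.25 without MO5).

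The Arp2/3 complex has 7 subunits, and its 40-kDa subunit comes from *Arpc1a* or *Arpc1b*. *Arpc1a* was the more abundant of the pair. *Arpc1a* had log2 levels of 7.09, 6.84 and 6.89 in WY1 to WY3 and of 6.82, 6.80 and 6.85 in MY1 to MY3. *Arpc1a* in the old mice had log2 levels of 6.87, 6.72, 6.65, 6.71 and 6.78 in WO1 to WO5 and of 6.89, 7.00, 6.88, 6.98 and 6.97 in MO1 to MO5. Every MO mouse lay above every WO mouse, but WY1 exceeded them all. *Arpc1a* was higher by 0.20 in WO vs. MO (FDR 0.00961; 0.18 in batch 1, with an FDR of 0.173, and 0.23 in batch 2; 0.19 without MO5) and by 0.12 in MY vs. MO (FDR 0.0803).

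*Arpc1b*, the form enriched in leukocytes, had far larger differences. *Arpc1b* had log2 levels of 4.56, 4.33 and 4.62 in WY1 to WY3 and of 4.33, 4.31 and 4.37 in MY1 to MY3. *Arpc1b* in the old mice had log2 levels of 4.21, 3.93, 3.88, 3.85 and 3.82 in WO1 to WO5 and of 5.30, 5.54, 5.79, 5.41 and 5.69 in MO1 to MO5. All MO mice were above the other 11, and all WO mice were below all young mice. Mean FPKM was 14.4 ± 1.77 (SD, n = 5) in WO and 46.1 ± 6.54 (SD, n = 5) in MO. The change was 1.61 in WO vs. MO (SE 0.10, FDR 1.46e-05; 1.54 in batch 1, 1.72 in batch 2; 1.58 without MO5) and 1.21 in MY vs. MO (SE 0.11, FDR 0.000302; 1.21 in batch 1; 1.17 without MO5). It was called in every fit that left out a mouse and in every alternative setting. In WY vs. WO it fell by 0.57 (FDR 0.0461), but leaving out any mouse other than WO1 took the FDR above 0.05, to between 0.0598 without WY2 and 0.181 without WY3. Of the 8 genes of the complex 7 were higher by the FDR in WO vs. MO (all genes 15.0%), with and without MO5, all but *Actr2* (0.09, FDR 0.197). In batch 1 alone only *Arpc1b* passed, and *Actr3* and *Arpc3* each lost the test when any of 7 single mice was left out. With the replicate number as a block *Actr3* (FDR 0.086) and *Arpc3* (0.101) lost it too. Besides *Arpc1b* the genes past the FDR in WO vs. MO ranged from 0.16 for *Actr3* to 0.35 for *Arpc5*. Those past the FDR in MY vs. MO were *Arpc1b*, *Arpc2* (not without MY3, FDR 0.0542) and *Arpc4*. With that block *Arpc2* (FDR 0.0634) and *Arpc4* (0.12) lost the FDR in MY vs. MO. *Arpc4* lost it in batch 1 alone (FDR 0.132) and without any of 7 single mice, and without MO5 (FDR 0.0764) *Actr3* passed instead (0.17, FDR 0.0316).

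*Was* encodes WASP, the activator of Arp2/3 in blood cells and microglia. *Was* had log2 levels of 0.74, 0.61 and 0.75 in WY1 to WY3 and of 0.69, 0.64 and 0.80 in MY1 to MY3. *Was* in the old mice had log2 levels of 0.68, 0.87, 0.60, 0.51 and 0.62 in WO1 to WO5 and of 1.69, 1.82, 1.67, 1.46 and 1.49 in MO1 to MO5. Every MO mouse exceeded every other mouse, the lowest MO mouse at 1.46 and the highest other mouse at 0.87. Levels were low throughout, with a mean FPKM of 0.58 ± 0.152 (SD, n = 5) in WO and 2.1 ± 0.324 (SD, n = 5) in MO. The log2 change was 0.97 in WO vs. MO (SE 0.08, FDR 2.71e-05; 1.01 in batch 1, 0.91 in batch 2; 1.00 without MO5) and 0.91 in MY vs. MO (FDR 0.000357; 0.95 without MO5). *Was* was called in all alternative fits that tested it, and a pseudocount of 0.1 in place of 1 raised the 2 values to 1.71 and 1.57. *Wasl*, the relative found in most tissues, was the most abundant gene of the family. *Wasl* had log2 levels of 4.63, 4.84 and 4.77 in WY1 to WY3 and of 4.86, 4.81 and 4.84 in MY1 to MY3. *Wasl* in the old mice had log2 levels of 4.94, 4.93, 4.83, 4.80 and 4.80 in WO1 to WO5 and of 4.73, 4.88, 4.68, 4.63 and 4.75 in MO1 to MO5. WO and MO overlapped, and the change was −0.13 in WO vs. MO (FDR 0.0912; −0.14 in batch 1, −0.11 in batch 2; −0.13 without MO5) and −0.10 in MY vs. MO (FDR 0.232).

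WAVE1, from *Wasf1*, and WAVE3, from *Wasf3*, relay Rac signals to Arp2/3 and are prominent in neurons. *Wasf1* had log2 levels of 4.53, 4.60 and 4.49 in WY1 to WY3 and of 4.56, 4.53 and 4.52 in MY1 to MY3. *Wasf1* in the old mice had log2 levels of 4.51, 4.56, 4.48, 4.59 and 4.59 in WO1 to WO5 and of 4.41, 4.45, 4.21, 4.25 and 4.35 in MO1 to MO5. All 5 MO mice lay below the other 11, with MO2 and WO3 the closest. *Wasf1* fell by 0.21 in WO vs. MO (FDR 0.0119; −0.16 in batch 1, −0.29 in batch 2; −0.21 without MO5, FDR 0.0227). With batch 1 alone its FDR was 0.229. The MY vs. MO change of −0.20 (FDR 0.0409) lost the test without MY1 (FDR 0.138), MY2 (0.11), MY3 (0.105), MO3 (0.0691), MO4 (0.0685) or MO5 (0.0645), with batch 1 alone (0.117), with batch as a term (0.105) and with a pseudocount of 0.1 (0.0673).

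*Wasf3* fell further. *Wasf3* had log2 levels of 4.22, 4.80 and 4.74 in WY1 to WY3 and of 4.80, 4.72 and 4.78 in MY1 to MY3. *Wasf3* in the old mice had log2 levels of 4.68, 4.73, 4.84, 4.86 and 4.80 in WO1 to WO5 and of 4.39, 4.28, 4.28, 4.26 and 4.35 in MO1 to MO5. MO mice lay below all others except WY1, which was the lowest of all. The values were −0.47 in WO vs. MO (FDR 4.85e-05; −0.43 in batch 1, −0.53 in batch 2; −0.48 without MO5) and −0.45 in MY vs. MO (FDR 0.000357). *Wasf2*, the WAVE found in most tissues, had 0.11 in both comparisons (FDR 0.256 and 0.442).

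Formins ride on growing filament ends and take monomers from profilin. *Fmnl2* was the most abundant of the 8. *Fmnl2* had log2 levels of 4.73, 4.73 and 4.57 in WY1 to WY3 and of 4.72, 4.72 and 4.58 in MY1 to MY3. *Fmnl2* in the old mice had log2 levels of 4.51, 4.65, 4.49, 4.45 and 4.52 in WO1 to WO5 and of 4.34, 4.55, 4.47, 4.67 and 4.47 in MO1 to MO5. The old groups overlapped, with −0.02 in WO vs. MO (FDR 0.827; −0.10 in batch 1, 0.08 in batch 2; −0.02 without MO5) and −0.17 in MY vs. MO (FDR 0.128). *Fmn2*, a formin of the nervous system, was as even. *Fmn2* had log2 levels of 3.29, 3.60 and 3.49 in WY1 to WY3 and of 3.48, 3.51 and 3.55 in MY1 to MY3. *Fmn2* in the old mice had log2 levels of 3.30, 3.55, 3.50, 3.56 and 3.46 in WO1 to WO5 and of 3.40, 3.54, 3.46, 3.34 and 3.46 in MO1 to MO5. WY1 and WO1 had its lowest values and the MO mice lay within the range of WO. The change was −0.03 in WO vs. MO (95% interval −0.16 to 0.09, FDR 0.74; −0.04 without MO5) and −0.07 in MY vs. MO (FDR 0.335), and the first turned to 0.02 in batch 1 alone.

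*Fmnl3*, a formin that also bundles filaments, was the 1 formin called in any comparison. *Fmnl3* had log2 levels of 2.23, 2.12 and 2.00 in WY1 to WY3 and of 2.02, 2.06 and 1.95 in MY1 to MY3. *Fmnl3* in the old mice had log2 levels of 2.15, 2.28, 2.09, 1.97 and 2.12 in WO1 to WO5 and of 2.51, 2.61, 2.84, 2.38 and 2.74 in MO1 to MO5. All MO mice exceeded all others, MO4 by the least. In WO vs. MO it rose by 0.49 (FDR 0.00211; 0.47 in batch 1, 0.51 in batch 2; 0.46 without MO5). The rise of 0.60 in MY vs. MO (FDR 0.00334) fell under 1.5-fold without MY3 (0.57), MO3 (0.55) or MO5 (0.57) and after quantile normalization (0.53), and was not called by treat (FDR 0.0837). *Diaph2* was the other formin past the FDR in WO vs. MO (0.19, FDR 0.0222), and *Daam1* the only formin lower by the FDR, in MY vs. MO (−0.25, FDR 0.00383), with 0.20 and −0.25 without MO5. *Diaph2* did not pass after quantile normalization (0.09, FDR 0.256), in batch 1 alone (FDR 0.202) or without WO4 (0.0556) or WO5 (0.0522).

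In the Ena/VASP family, whose proteins protect filament ends from capping, *Evl* was the most abundant. *Evl* had log2 levels of 5.02, 4.97 and 5.06 in WY1 to WY3 and of 4.95, 5.00 and 5.05 in MY1 to MY3. *Evl* in the old mice had log2 levels of 5.09, 4.88, 4.91, 4.94 and 5.10 in WO1 to WO5 and of 4.90, 4.91, 5.08, 4.95 and 4.86 in MO1 to MO5. Its groups overlapped everywhere, with −0.04 in WO vs. MO (FDR 0.632; 0.00 in batch 1, −0.11 in batch 2; −0.02 without MO5) and −0.06 in MY vs. MO (FDR 0.5). *Vasp* alone of the 3 passed, at 0.31 in WO vs. MO (FDR 0.000892) and 0.33 in MY vs. MO (FDR 0.00177), or 0.29 and 0.31 without MO5.

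Coronins bind filaments and tune Arp2/3 and cofilin. *Coro1a* is the coronin of leukocytes. *Coro1a* had log2 levels of 4.57, 4.36 and 4.49 in WY1 to WY3 and of 4.32, 4.40 and 4.52 in MY1 to MY3. *Coro1a* in the old mice had log2 levels of 4.72, 4.58, 4.71, 4.50 and 4.41 in WO1 to WO5 and of 4.77, 5.08, 5.09, 5.04 and 5.06 in MO1 to MO5. All MO mice lay above the rest, but MO1 was well below the other 4, which spanned only 5.04 to 5.09. *Coro1a* rose by 0.42 in WO vs. MO (FDR 0.00249; 0.31 in batch 1, 0.59 in batch 2; 0.41 without MO5), though with an FDR of 0.0884 in batch 1 alone. Its rise of 0.59 in MY vs. MO (FDR 0.00156) fell short of 1.5-fold without MY1 (0.55), MO2 (0.58), MO3 (0.57) or MO5 (0.58), and also with batch 1 alone or batch as a term (0.57). *Coro1b*, the coronin of most other cells, was somewhat more abundant. *Coro1b* had log2 levels of 5.48, 5.27 and 5.35 in WY1 to WY3 and of 5.24, 5.25 and 5.30 in MY1 to MY3. *Coro1b* in the old mice had log2 levels of 5.28, 5.20, 5.20, 5.25 and 5.32 in WO1 to WO5 and of 5.37, 5.54, 5.58, 5.51 and 5.65 in MO1 to MO5. All MO mice exceeded all WO and MY mice, and WY1 reached into their range. *Coro1b* was higher by 0.28 in WO vs. MO (FDR 0.00228; 0.27 in batch 1, 0.30 in batch 2; 0.25 without MO5) and by 0.27 in MY vs. MO (FDR 0.0134; 0.24 without MO5, FDR 0.0211), the latter with an FDR above 0.05 without MY1 (0.0602) or MY2 (0.0523).

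*Capg* encodes a protein that caps filament ends and is abundant in macrophages. *Capg* had log2 levels of 2.26, 2.00 and 2.12 in WY1 to WY3 and of 2.27, 2.36 and 2.46 in MY1 to MY3. *Capg* in the old mice had log2 levels of 2.56, 2.52, 2.47, 1.94 and 1.85 in WO1 to WO5 and of 4.53, 4.83, 5.16, 4.33 and 4.45 in MO1 to MO5. Even the lowest MO mouse, MO4, was far above the highest of the others, WO1. Mean FPKM was 3.93 ± 1.11 (SD, n = 5) in WO and 24.8 ± 6.33 (SD, n = 5) in MO. Its changes were the largest of the members in both comparisons, 2.39 in WO vs. MO (SE 0.19, FDR 2.16e-05; 2.32 in batch 1, 2.49 in batch 2; 2.44 without MO5) and 2.30 in MY vs. MO (SE 0.17, FDR 0.000212; 2.47 in batch 1; 2.35 without MO5). *Capg* was called in every alternative fit. *Capzb*, a subunit of the general capping protein, was higher by 0.27 in WO vs. MO (FDR 0.00301) and by 0.15 in MY vs. MO (FDR 0.0255), or 0.27 and 0.16 without MO5. In batch 1 alone neither passed (FDR 0.0992 and 0.0747), nor did the second without MY1, MY2 or MY3.

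*Gsn* encodes gelsolin, which severs filaments and caps the new ends, and in the cord it is also a gene of myelinating cells. *Gsn* had log2 levels of 7.64, 7.63 and 7.76 in WY1 to WY3 and of 7.42, 7.50 and 7.43 in MY1 to MY3. *Gsn* in the old mice had log2 levels of 6.65, 6.44, 6.60, 6.97 and 6.86 in WO1 to WO5 and of 6.83, 6.67, 6.71, 7.10 and 7.32 in MO1 to MO5. Every young mouse was above every old mouse, and the old strains overlapped. *Gsn* fell with age in wild-type mice by 0.97 (SE 0.11, FDR 0.0129; −1.11 in batch 1), although without WY3 the FDR was 0.079 (−0.93) and by treat 0.124. The MY vs. MO value was −0.52 (FDR 0.0301; −0.71 in batch 1). It was −0.62 (FDR 0.00537) and called without MO5, and its FDR exceeded 0.05 without MY1 (0.0875), MY2 (0.0979), MY3 (0.0873), MO2 (0.0545) or MO3 (0.0605). As deposited the change with age was not shown to differ between the strains (interaction 0.45, FDR 0.126; 0.35 without MO5), but it did with batch as a term (FDR 0.00452) and in batch 1 alone (0.40, FDR 0.019). The old strains differed by 0.22 (FDR 0.27; 0.17 in batch 1, 0.30 in batch 2), a value that passed with batch as a term (FDR 0.0272) and was 0.13 without MO5 (FDR 0.512). Of 8 oligodendrocyte markers 5 were lower by the FDR in WY vs. WO, 3 of them called, with a median of −0.72. Their summed FPKM was 16700, 14400 and 14800 in WY1 to WY3, 15100, 14600 and 14200 in MY1 to MY3, 10300, 9550, 9590, 5360 and 24000 in WO1 to WO5 and 7220, 7730, 7850, 22300 and 21700 in MO1 to MO5, and *Mbp* was the most abundant. Their mean log2 level was 9.55, 9.41 and 9.48 in WY1 to WY3, 9.34, 9.34 and 9.36 in MY1 to MY3, 8.74, 8.68, 8.79, 8.09 and 9.17 in WO1 to WO5 and 8.27, 8.45, 8.57, 9.24 and 9.08 in MO1 to MO5, with all old mice below all young mice. The part of oligodendrocytes in the *Gsn* difference was not tested. In bulk tissue fewer cells of a type and less RNA per cell cannot be told apart.

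Bundling proteins tie filaments into cables. *Lcp1* encodes L-plastin, the bundler of leukocytes. *Lcp1* had log2 levels of 3.48, 3.86 and 3.71 in WY1 to WY3 and of 3.78, 3.87 and 3.69 in MY1 to MY3. *Lcp1* in the old mice had log2 levels of 3.84, 3.70, 3.84, 3.57 and 3.63 in WO1 to WO5 and of 4.08, 4.33, 4.54, 4.24 and 4.25 in MO1 to MO5. All MO mice were above all other mice. *Lcp1* rose by 0.57 in WO vs. MO (SE 0.08, FDR 0.000672; 0.52 in batch 1, 0.64 in batch 2; 0.58 without MO5) and by 0.50 in MY vs. MO (FDR 0.00615; 0.51 without MO5), in both under 1.5-fold. Leaving out single mice moved the WO vs. MO value as far as 0.62, past 1.5-fold. *Pls3*, the plastin of solid tissues, was more abundant. *Pls3* had log2 levels of 5.92, 6.21 and 6.14 in WY1 to WY3 and of 6.23, 6.14 and 6.17 in MY1 to MY3. *Pls3* in the old mice had log2 levels of 6.22, 6.22, 6.27, 6.20 and 6.19 in WO1 to WO5 and of 6.02, 6.14, 5.96, 6.11 and 5.98 in MO1 to MO5. MO mice lay below all WO mice, and WY1 was the lowest of all. *Pls3* fell by 0.18 in WO vs. MO (FDR 0.00932; −0.20 in batch 1, with an FDR of 0.0859, −0.15 in batch 2; −0.16 without MO5, FDR 0.0237), and MY vs. MO gave −0.13 (FDR 0.0961). *Fscn1*, fascin, had −0.25 in WO vs. MO (FDR 0.129) and −0.42 in MY vs. MO (FDR 0.0569). The second passed in 8 alternatives, among them batch 1 alone (−0.52, FDR 0.0418), batch as a term (FDR 0.0349), quantile normalization (FDR 0.0347) and without MO1 (−0.31, FDR 0.0135).

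The contrast between the 5 leukocyte-enriched and the 3 neuronal members was described as a mean log2 level per mouse, with no test. The leukocyte mean was 3.12, 3.03 and 3.14 in WY1 to WY3 and 3.08, 3.12 and 3.17 in MY1 to MY3. In the old mice this mean was 3.20, 3.12, 3.10, 2.87 and 2.87 in WO1 to WO5 and 4.07, 4.32, 4.45, 4.09 and 4.19 in MO1 to MO5. MO stood apart from all others, which overlapped. The difference was 1.19 in WO vs. MO (1.14 in batch 1, 1.27 in batch 2; 1.2 without MO5) and 1.10 in MY vs. MO (1.16 in batch 1; 1.11 without MO5).

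For the neuronal members the mean was 5.38, 5.53 and 5.43 in WY1 to WY3 and 5.45, 5.45 and 5.45 in MY1 to MY3. Old mice had neuronal means of 5.40, 5.48, 5.43, 5.46 and 5.44 in WO1 to WO5 and of 5.31, 5.44, 5.26, 5.30 and 5.31 in MO1 to MO5. MO2 lay within the range of WO and the other 4 MO mice below it. Its difference was −0.12 in WO vs. MO (−0.10 in batch 1, −0.15 in batch 2; −0.12 without MO5) and −0.13 in MY vs. MO (−0.11 in batch 1; −0.12 without MO5). With the median of the 3 genes in place of the mean these were −0.21 and −0.20.

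**Figure D3:**
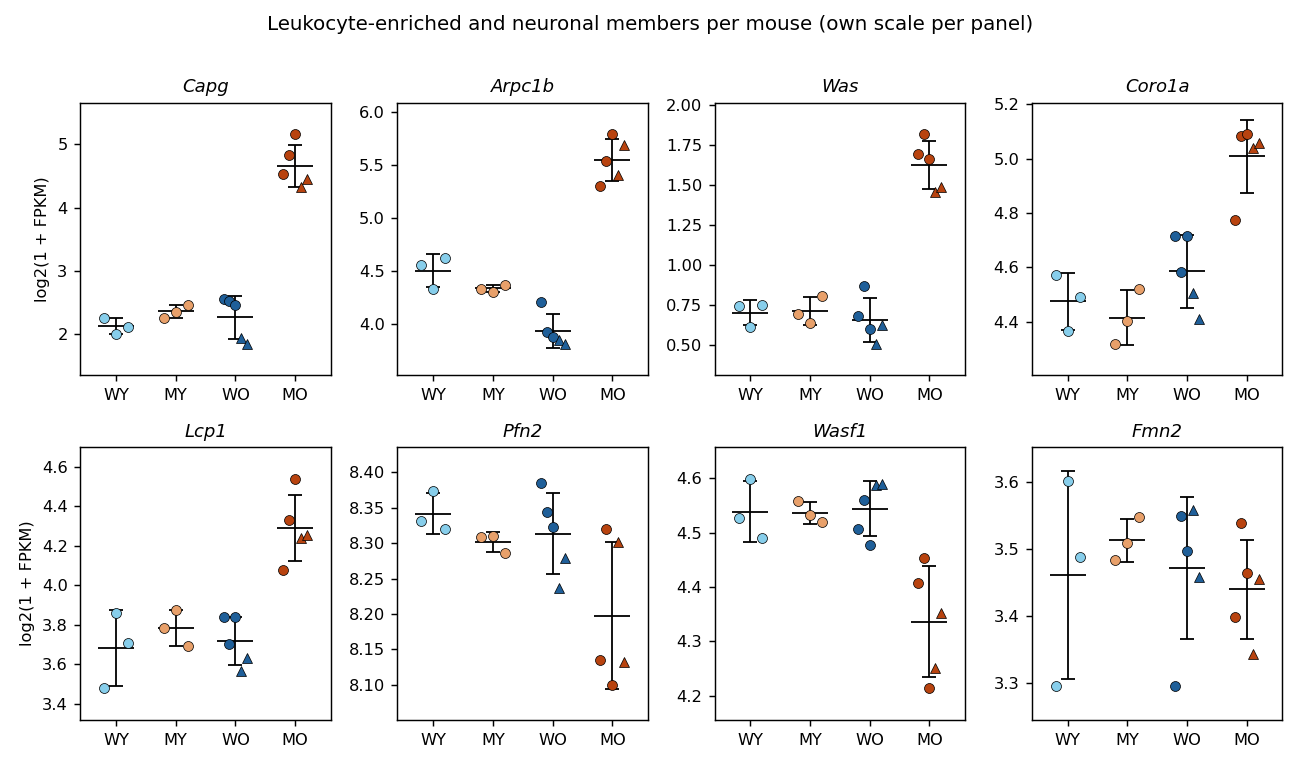
Log2(1 + FPKM) of the 5 leukocyte-enriched members and the 3 neuronal members in each mouse, circles for batch 1 and triangles for batch 2, with the mean and SD of each group and an own scale per panel. MO mice lie above all others for *Capg*, *Arpc1b*, *Was*, *Coro1a* and *Lcp1* and below all others for *Wasf1*.

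Most markers of microglia and macrophages, which express the leukocyte members, were also higher in MO. Of 13 microglia and macrophage markers 11 were called higher in WO vs. MO and 12 in MY vs. MO, with medians of 1.75 and 1.88, and without MO5 11 were called in each. Their summed FPKM was 298, 249 and 282 in WY1 to WY3, 255, 288 and 270 in MY1 to MY3, 314, 314, 350, 218 and 205 in WO1 to WO5 and 1310, 1800, 2120, 1110 and 1290 in MO1 to MO5, and *C1qb* was the most abundant. *P2ry12*, a gene of resting microglia, stayed at 0.10 in WO vs. MO (FDR 0.623), and *Tmem119* was higher by 0.49 (FDR 0.00298). Markers of other leukocytes were low. All 6 T and B cell genes in the table had means under 0.25 (*Cd3d*, *Cd3e*, *Cd3g*, *Cd4*, *Cd8a* and *Cd79a*, the last the most abundant), with a summed FPKM of at most 0.716 in any mouse, and 2 of them passed the FDR as higher in WO vs. MO (1 without MO5). Of 6 neutrophil and monocyte genes *Ly6c2* and *Ccr2* were near 0, and 1 was called higher in WO vs. MO, *Csf3r*, also the most abundant. Their summed FPKM was 3.11, 3.76 and 3.11 in WY1 to WY3, 7.54, 4.9 and 4.49 in MY1 to MY3, 10.2, 35.7, 4.79, 8.06 and 7.37 in WO1 to WO5 and 15, 15.4, 10.4, 9.74 and 7.18 in MO1 to MO5. The part of these cells in the result was not tested.

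Most of the 10 neuron markers chosen here stood lower in MO. The paper used a longer list of neuron markers and found no significant difference among the groups. Of the 10 genes 8 were lower by the FDR in WO vs. MO (6 without MO5), 2 of them called, with a median of −0.29. Their summed FPKM was 4430, 4880 and 4760 in WY1 to WY3, 4960, 4840 and 5000 in MY1 to MY3, 5540, 4790, 4950, 5000 and 5250 in WO1 to WO5 and 3660, 3850, 3570, 4160 and 3630 in MO1 to MO5, and *Snap25* was the most abundant. Of 7 motor neuron genes 5 were lower, 1 of them called, with a median of −0.49, *Prph* as the most abundant and a mean log2 level of 2.97, 3.21 and 3.28 in WY1 to WY3, 3.20, 3.26 and 3.18 in MY1 to MY3, 3.50, 3.31, 3.31, 3.29 and 3.37 in WO1 to WO5 and 3.01, 3.01, 2.77, 3.05 and 2.93 in MO1 to MO5. Of 8 astrocyte genes 6 were higher by the FDR (5 without MO5), 4 of them called, with *Gfap* the most abundant and a summed FPKM of 2560, 2370 and 2330 in WY1 to WY3, 2240, 2280 and 2190 in MY1 to MY3, 1880, 1880, 1980, 2080 and 1820 in WO1 to WO5 and 3190, 4090, 3700, 3310 and 3320 in MO1 to MO5. Endothelial and mural cells had 4 of 8 genes lower and 1 higher by the FDR (4 and 0 without MO5), with *Vtn* the most abundant and a mean summed FPKM of 95.4 in WO and 71.6 in MO. Meningeal fibroblasts (*Pdgfra* the most abundant), Schwann cells (*Pmp22*) and blood (*Hba-a1*) had no gene past the limma FDR in WO vs. MO, with 1, 0 and 1 genes at an unadjusted p under 0.05, and of 6 muscle genes *Acta1*, the most abundant, was lower, though not without MO5 (FDR 0.0596). *Prx*, *Ckm*, *Myh1*, *Myh4*, *Hba-a2* and *Hbb-bs* were near 0. How much any of these cells contributed to the members' values was not tested.

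Of all 46 members 13 had the 5 MO mice above the 11 others, against 7.58% of all genes: *Actb*, *Tmsb4x*, *Twf1*, *Arpc1b*, *Arpc2*, *Was*, *Diaph2*, *Fmnl3*, *Vasp*, *Coro1a*, *Capg*, *Capzb* and *Lcp1*. Those with the MO mice below all others numbered 2, *Limk1* and *Wasf1*, against 2.66%. Without MO5 these counts were 14 (all genes 8.25%), *Actr3* being added, and 2 (all genes 3.65%). A direct test of whether the change with age differed between the strains was the interaction of (MO − MY) against (WO − WY). It was positive by the FDR for 16 members (all genes 10.5%) and negative for 3, *Limk1*, *Wasf3* and *Pls3* (all genes 7.19%). Without MO5 it was positive for 14 (all genes 10.2%) and negative for 2 (6.92%), and 10 passed in batch 1 alone (all genes 8.02% positive and 4.35% negative). *Capg* had the largest interaction, 2.15 (SE 0.27, FDR 0.000121), then *Arpc1b*, 1.78 (FDR 2.56e-05), *Was*, 0.96 (FDR 0.000144), and *Tmsb4x*, 0.95 (FDR 0.0138), with 2.20, 1.74, 0.99 and 0.95 without MO5. With a pseudocount of 0.1 that of *Was* was 1.69, and after quantile normalization that of *Tmsb4x* was 0.50 (FDR 0.00948), below the 0.54 of *Fmnl3*. *Wasf3* had the most negative, −0.65 (FDR 0.00505; −0.66 without MO5). For *Actb* the interaction of 0.32 (FDR 0.0209) fell to 0.15 after quantile normalization (FDR 0.481), and its FDR exceeded 0.05 without WY1 (0.0644) or MY3 (0.0507) and with a variance trend (0.0538). *Pls3*, at −0.27 (FDR 0.0398), lost it when any of 12 single mice was left out, with the highest FDR, 0.107, without MY1, and also in batch 1 alone (0.102) and with a pseudocount of 0.1 (0.0623). *Lcp1*, *Tmsb4x*, *Coro1a* and *Arpc1a* lost it in batch 1 alone, with FDRs of 0.136, 0.0879, 0.0957 and 0.104, as did *Arpc2*, *Arpc4*, *Arpc5* and *Vasp*. *Lcp1* also lost it when any of 8 single mice was left out, *Vasp* with any of 9 and *Arpc4* with any of 12, the highest FDRs being 0.0935, 0.112 and 0.115.

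Beyond the members, other genes of the actin cytoskeleton were put in 9 lists of 7 to 19 genes by function, from membrane linkers to tropomyosins. In WO vs. MO 16 were called higher (all genes 4.08%) and 0 lower (0.517%) in limma, with 75 at an unadjusted p under 0.05 (all genes 38.5%), 49 of them higher, and 16 to 21 called over the other fits. By the FDR alone 42 were higher (all genes 15.0%), 20 lower (all genes 12.9%) and 56 neither, with a median of 0.08, and without MO5 38 (13.8%) and 19 (12.1%). In MY vs. MO 16 were called higher (all genes 4.11%) and 0 lower (0.787%), with 58 at an unadjusted limma p under 0.05 (all genes 36.7%), and by the FDR 31 were higher (13.1%) and 16 lower (12.5%), or 29 (12.0%) and 12 (11.7%) without MO5. No other actin gene passed the limma FDR in WY vs. WO or WY vs. MY, nor in the alternative fits except *Wdr1* in WY vs. MY with all groups in 1 fit (0.35, FDR 0.00246), with 26 and 9 at an unadjusted p under 0.05 (all genes 13.5% and 7.16%).

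The 5 largest of the called genes in WO vs. MO were *Tagln*, *Arhgdib*, *Nckap1l*, *Flnc* and *Tagln2*, at 1.74, 1.63, 1.58, 1.55 and 1.48 without MO5. *Tagln*, transgelin, cross-links filaments in contractile cells. *Tagln* had log2 levels of 2.92, 2.75 and 2.72 in WY1 to WY3 and of 2.85, 3.09 and 3.00 in MY1 to MY3. *Tagln* in the old mice had log2 levels of 2.98, 2.60, 2.86, 2.38 and 2.36 in WO1 to WO5 and of 3.94, 4.73, 4.35, 4.46 and 4.42 in MO1 to MO5. MO mice stood well above all others. Its change was 1.75 (SE 0.16, FDR 3.63e-05; 1.53 in batch 1, 2.07 in batch 2). *Arhgdib* is a gene of leukocytes. *Arhgdib* had log2 levels of 2.96, 2.75 and 2.63 in WY1 to WY3 and of 2.98, 2.82 and 2.79 in MY1 to MY3. *Arhgdib* in the old mice had log2 levels of 3.23, 2.85, 2.99, 2.57 and 2.39 in WO1 to WO5 and of 4.39, 4.65, 4.55, 4.16 and 4.25 in MO1 to MO5. Again all MO mice were above the 11 others, and WO4 and WO5 were the lowest. *Arhgdib* rose by 1.59 (FDR 5.27e-05; 1.51 in batch 1, 1.73 in batch 2).

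*Nckap1l* encodes the leukocyte subunit of the WAVE complex, which holds WAVE proteins inactive until Rac binds. *Nckap1l* had log2 levels of 2.02, 2.14 and 2.00 in WY1 to WY3 and of 2.06, 2.06 and 2.08 in MY1 to MY3. *Nckap1l* in the old mice had log2 levels of 1.96, 2.09, 2.07, 1.87 and 1.70 in WO1 to WO5 and of 3.52, 3.62, 3.83, 3.09 and 3.48 in MO1 to MO5. MO4 was the lowest of its group and still above all mice of the other groups. *Nckap1l* rose by 1.57 (FDR 2.16e-05; 1.62 in batch 1, 1.5 in batch 2). *Flnc*, a filamin of muscle, cross-links filaments. *Flnc* had log2 levels of 2.01, 1.95 and 1.87 in WY1 to WY3 and of 1.64, 1.86 and 1.87 in MY1 to MY3. *Flnc* in the old mice had log2 levels of 1.61, 1.60, 1.77, 1.79 and 1.40 in WO1 to WO5 and of 3.16, 3.15, 3.50, 2.94 and 3.20 in MO1 to MO5. No other mouse reached the MO range. *Flnc* rose by 1.56 (FDR 1.46e-05; 1.61 in batch 1, 1.48 in batch 2). *Tagln2* is a relative of transgelin found in many cells. *Tagln2* had log2 levels of 4.00, 3.63 and 3.75 in WY1 to WY3 and of 3.44, 3.55 and 3.57 in MY1 to MY3. *Tagln2* in the old mice had log2 levels of 3.67, 3.66, 3.62, 3.29 and 3.33 in WO1 to WO5 and of 4.70, 5.09, 5.25, 4.94 and 5.03 in MO1 to MO5. MO1, the lowest of its group, lay above WY1, the highest of the rest. *Tagln2* rose by 1.49 (FDR 2.16e-05; 1.36 in batch 1, 1.67 in batch 2).

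The order of strains seen for *Actb*, *Actg1* and *Cap1* held for 3 of the other actin genes (all genes 0.182%) and was reversed in 0 (all genes 0.132%). They were *Wdr1*, *Flna* and *Vcl*, named for that order after their values were seen. *Wdr1* encodes AIP1, the partner of cofilin in disassembly. *Wdr1* had log2 levels of 6.04, 6.08 and 6.06 in WY1 to WY3 and of 6.40, 6.39 and 6.44 in MY1 to MY3. *Wdr1* in the old mice had log2 levels of 6.01, 5.95, 5.98, 6.00 and 6.08 in WO1 to WO5 and of 6.49, 6.53, 6.47, 6.42 and 6.45 in MO1 to MO5. The lowest mutant, MY2, was 0.31 above the highest wild-type mouse. For *Flna*, the general filamin, the lowest mutant mouse had 3.87 and the highest wild-type mouse 3.74, and for *Vcl*, vinculin, which links filaments to the membrane, 3.96 and 3.79. All 3 kept the order after quantile normalization.

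Members also differ in how much sequence they share with other genes, which bears on where reads could be placed. Each member's longest coding transcript in GENCODE M21 was cut into all stretches of 50 bases, and the share found in a transcript of another gene was counted. It was 56.7% for *Actg1*, 51.1% with the pseudogene *Gm12715* alone, 49.8% for *Actr3*, 43.5% for *Tmsb10*, 20.8% for *Coro1b*, 14.2% for *Actb* and 12.8% for *Arpc1b*. For *Pfn1*, *Pfn2*, *Tmsb4x*, *Coro1a*, *Capg* and *Gsn* it was 0. The search covered mouse transcripts only. The human profilin 1 sequence of the transgenes was not in it, so the value of *Pfn1* leaves that sequence out. How such reads were placed by the authors is not known.

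Promoter sequences were read with the actins and the leukocyte members in mind. RefSeq promoter windows on GRCm38.p6, from 250 bases before to 50 after a gene's start, were present for 42 of 46 members, in 53 windows. *Actb*, *Twf2*, *Diaph1* and *Coro1b* had none. Motifs were searched on both strands and chosen after the results were known. The first was the CArG box, the sequence that serum response factor binds. It lay in 1.63% of all 32851 windows, in those of 2 members, *Actg1* and *Arpc4* (3.77% of the windows of members), and in those of 5 other actin genes, *Acta1*, *Actc1*, *Fermt2*, *Vcl* and *Vil1*. The windows of *Actg1*, chr11:120348446-120348745 on the minus strand, and of *Vcl*, chr14:20929148-20929447 on the plus strand, are shown since both genes had all mutant mice above all wild-type mice as deposited, with the CArG box in capitals.
Actg1: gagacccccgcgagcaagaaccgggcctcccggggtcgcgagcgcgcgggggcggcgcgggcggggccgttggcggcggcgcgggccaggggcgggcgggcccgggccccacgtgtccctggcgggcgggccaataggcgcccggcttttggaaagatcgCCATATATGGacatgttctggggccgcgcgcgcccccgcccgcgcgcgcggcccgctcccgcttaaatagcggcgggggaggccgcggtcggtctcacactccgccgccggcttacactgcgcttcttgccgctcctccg
Vcl: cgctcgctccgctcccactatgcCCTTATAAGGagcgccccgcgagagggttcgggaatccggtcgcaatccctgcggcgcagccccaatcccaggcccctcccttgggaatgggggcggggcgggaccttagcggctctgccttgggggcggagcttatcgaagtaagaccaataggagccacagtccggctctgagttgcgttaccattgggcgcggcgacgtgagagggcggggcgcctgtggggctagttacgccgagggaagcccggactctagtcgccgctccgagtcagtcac

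The second motif was AGGAAGT, a core bound by ETS factors such as PU.1, which occurs in either orientation in 9.35% of all windows. Of the members 8 had it, *Arpc1b*, *Diaph2*, *Fmnl1*, *Gsn*, *Pfn1*, *Pls3*, *Twf1* and *Was* (15.1% of their windows), 2 of them among the 5 leukocyte members and 0 among the 3 neuronal members. The windows of *Was*, chrX:8090442-8090741 on the minus strand, and *Arpc1b*, chr5:145114006-145114305 on the plus strand, are shown as those of the leukocyte members with a match, with the motif or its reverse complement in capitals. A match is a description of these letters and not evidence of binding.
Was: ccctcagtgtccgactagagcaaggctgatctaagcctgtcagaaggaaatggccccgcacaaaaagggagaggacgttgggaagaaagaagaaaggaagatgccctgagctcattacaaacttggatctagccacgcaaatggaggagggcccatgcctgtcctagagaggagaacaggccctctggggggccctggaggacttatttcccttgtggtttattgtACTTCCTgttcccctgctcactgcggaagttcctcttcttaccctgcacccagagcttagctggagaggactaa
Arpc1b: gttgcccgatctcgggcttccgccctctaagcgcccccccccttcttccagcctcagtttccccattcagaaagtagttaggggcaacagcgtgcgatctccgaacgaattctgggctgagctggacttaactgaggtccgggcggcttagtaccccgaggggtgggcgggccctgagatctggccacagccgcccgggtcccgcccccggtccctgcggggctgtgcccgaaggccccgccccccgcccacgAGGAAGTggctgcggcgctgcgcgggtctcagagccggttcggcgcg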

How the data were processed

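Spinal cord mRNA of 16 mice was sequenced by the authors. The deposited values are log2 of 1 plus FPKM, which the authors made with Trimmomatic, TopHat to mm10 and Cufflinks. They removed genes with FPKM 0 in 8 or more mice and adjusted the log2 values for batch with ComBat, with covariates not stated. The table has no unused columns (0), and read counts per gene are not given. Each pair of groups was fitted with limma 3.58.1 in R 4.3.3 (lmFit and eBayes, two-sided) over all 18167 genes, with Benjamini-Hochberg FDR, and all 16 mice in 1 fit for the interaction and for genotype over both ages. Tables and figures used Python 3.11.15, and the fits were tested on simulated data.

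The members, the other actin genes and the marker lists were chosen with earlier results of these data known. Of the marker genes 2 are not reported here and were taken off their lists afterwards, for a reason unrelated to their values. Genes described with per-mouse values were *Pfn1*, *Pfn2*, the 8 contrast genes, every called member and the most abundant member of each role, then the 5 called other actin genes with the largest change in WO vs. MO. *Actb*, *Cap1*, *Limk1*, *Wasf3*, *Wdr1*, *Flna* and *Vcl* were added after their values were seen, as were the genotype comparison, the count of mice without overlap and the motifs. Alternatives were batch 1 only, batch as a term, a mean of at least 1, a pseudocount of 0.1, quantile normalization, a single fit for all groups, treat at 1.2-fold, a variance trend with intensity, a block for the replicate number, and leaving out single mice.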

Additional observations from a re-analysis of the deposited data

Results flagged for a closer look

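Among the 44 sets of group values checked for a mouse far from the others of its group, 2 had one. *Coro1a* in MO1 was at 4.77 on the log2 scale, while the other MO mice lay between 5.04 and 5.09. *Arpc1b* in WO1 was at 4.21, and the other WO mice lay between 3.82 and 3.93. Chance alone flags about 1 in 20 such groups, and neither was looked into further.

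The change with age differed between the strains, by a test of that difference in limma, for 19 members in all 16 mice. Of all genes 10.5% passed as positive and 7.19% as negative. These shares were 8.02% and 4.35% in batch 1 alone and 10.2% and 6.92% without MO5. The log2 difference, MO minus MY less WO minus WY, was 2.15 for *Capg*, 1.78 for *Arpc1b*, 0.96 for *Was*, 0.95 for *Tmsb4x*, 0.60 for *Fmnl3* and 0.50 for *Pfn1*. It was 0.48 for *Coro1a*, 0.47 for *Lcp1*, 0.39 for *Coro1b*, 0.39 for *Arpc5*, 0.32 for *Actb*, 0.31 for *Arpc1a* and 0.31 for *Twf1*. For *Arpc2* it was 0.29, for *Vasp* 0.29 and for *Arpc4* 0.25. The negative differences were −0.65 for *Wasf3*, −0.41 for *Limk1* and −0.27 for *Pls3*. Without MO5 the FDR was above 0.05 for *Arpc4* (0.0592), *Vasp* (0.0594) and *Pls3* (0.0619). In batch 1 alone it was so for *Lcp1* (0.136), *Tmsb4x* (0.0879), *Coro1a* (0.0957), *Arpc1a* (0.104), *Pfn1* (0.151), *Pls3* (0.102), *Arpc2* (0.112), *Arpc4* (0.185), *Arpc5* (0.0796) and *Vasp* (0.127).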

How the results depend on the processing

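Counts stayed within 1.5 times the reported count and group differences within the SD between mice in 302 of their settings, and moved further in 24. With batch 1 only, 3 mice a group, 10 members passed for the interaction (all genes 8.02% higher and 4.35% lower). For genotype over both ages 9 passed (all genes 6.2% and 2.75%). In WO vs. MO, where fewer mice were compared, 10 were higher by the FDR (all genes 8.52%) and 2 lower (5.86%). Quantile normalization gave 9 members lower by the FDR in MY vs. MO (all genes 17.5%). It left 1 with all mutant mice above all wild-type mice (all genes 0.182% as deposited). Treat called 0 members in WY vs. WO (all genes 0.0055% higher and 0.011% lower). With the median over the genes the neuronal members differed by −0.20 in MY vs. MO and −0.21 in WO vs. MO, and the leukocyte members by 0.86, by 0.93 and, in WY vs. MY, by 0.10. With a pseudocount of 0.1 the leukocyte values were 1.30 and 1.41. Leaving out each mouse gave 0 to 2 members called in WY vs. WO (all genes 0.011% to 0.0495% higher and 0.0275% to 0.314% lower). In MY vs. MO it gave 9 to 16 higher (all genes 8.0% to 15.0%) and 3 to 6 lower (6.23% to 13.2%) by the FDR. The cause was not tested.

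For the 24 members described one by one 1317 settings kept the direction, neither lost nor gained the FDR, and lost no call. Some of these newly reached 1.5-fold, as *Gsn* did in MY vs. MO without MO5 (−0.62, FDR 0.00537). Another 131 kept the direction but lost the FDR or fell under 1.5-fold. The FDR was gained in 11: *Pfn2*, *Actg1* and *Pls3* in MY vs. MO and *Pfn2* in WO vs. MO with quantile normalization, *Gsn* in WO vs. MO and for the interaction, *Wasl* in WO vs. MO without MO2 (−0.16, FDR 0.0287) and *Fmnl2* in MY vs. MO without MO4 (−0.21, FDR 0.0429). The *Pfn2* interaction, not among the results counted here, also gained the FDR with quantile normalization (−0.225, FDR 0.0272). The direction turned in 10. With batch 1 only *Fmn2* (0.0195) and *Evl* (0.0003) turned in WO vs. MO. With quantile normalization *Cfl1* (−0.1512) and *Actb* (−0.0319) turned in MY vs. MO. The *Actg1* interaction turned with quantile normalization (−0.3075) and without WY1 (−0.029), WO2 (−0.0164) or WO3 (−0.0188), and reached 0.0755 without WO5. *Fmnl2* in WO vs. MO turned without WO2 (0.008) or MO1 (0.017), and was −0.065 without MO4.

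The replicate numbers were not taken to pair mice. The correlation r between mice sharing a number ran from −0.207 (number 3, WO vs. MO) to 0.377 (number 1, WY vs. WO). With the number as a block 8 members were higher by the FDR in MY vs. MO (all genes 11.3%). Called were 6 in that comparison (all genes 4.68% higher and 1.42% lower) and 4 in WO vs. MO (4.08% and 0.539%). The block gave 1 called in WY vs. WO (all genes 0.0936% and 0.253%) and 0 in WY vs. MY (0.0055% and 0.0%). *Pfn1* (FDR 0.0732) and *Wasf1* (0.125) in MY vs. MO, the *Pfn1* interaction (0.0575), *Arpc1b* in WY vs. WO (0.142), *Coro1b* in MY vs. MO (0.0519), the *Pls3* interaction (0.0674) and *Cfl1* over both ages (0.0538) did not pass with it, among the members described one by one, *Coro1a* was 0.57 in MY vs. MO, and *Gsn* passed in WO vs. MO (0.0422) and for the interaction (0.011).

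Groups of 3 to 5 mice, 1 line per strain, missing batch 2 young mice and unknown read counts per gene limit these results. Adding 1 before the logarithm shrinks differences of genes with low FPKM such as *Was*.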
